A study of Mus musculus with 20 samples.

Results

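The 7 genes described are organic cation and carnitine carriers, measured here in mouse kidney. They are Slc22a2, Slc22a3, Slc22a4, Slc22a5 and Slc22a21 of the Slc22 family, and Slc47a1 and Slc47a2 of the Slc47 family. They were chosen by gene symbol from the 24762 genes of the count tables. Poly(A) RNA of whole kidney was sequenced in 20 libraries, 5 from each of 4 groups of C57BL/6J mice. The groups were ARLmon/Y given testosterone, ARLmon/Y given vehicle, wild type (WT) given testosterone and WT given vehicle. Every animal had been orchidectomised, so the vehicle groups lack testicular hormone, and the kidneys were taken after 4 days of replacement. The labels give the ARLmon/Y genotype by name only and do not state age or testosterone dose. The labels do not say that each library came from a separate mouse, so every p-value measures the spread between these libraries.

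Cationic drugs and metabolites leave the blood through the basolateral membrane of the proximal tubule cell and enter the urine through its luminal membrane. The uptake step is carried by the organic cation transporters, among them OCT2 (Slc22a2) and OCT3 (Slc22a3). The luminal step is carried by proton exchangers, among them MATE1 (Slc47a1). MATE2 (Slc47a2) is of the same family. The OCTN carriers form a separate branch: OCTN2 (Slc22a5) reclaims filtered carnitine, OCTN1 (Slc22a4) carries the antioxidant ergothioneine, and OCTN3 (Slc22a21) is a carnitine carrier of mice known best from the testis. Carnitine takes long-chain fatty acids into mitochondria for oxidation, the main fuel of this segment. In rats, renal OCT2 is known to depend on testosterone.

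The OCTN genes lie in a row on chromosome 11 and have closely related coding sequences, which bears on how far their reads can be separated. The first 60 coding bases of each are shown for that reason, with bases that differ from Slc22a5 in capitals (GENCODE M21 transcripts, GRCm38, minus strand, 5′ to 3′).
Slc22a5: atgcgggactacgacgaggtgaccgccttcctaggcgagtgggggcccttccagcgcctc
Slc22a21: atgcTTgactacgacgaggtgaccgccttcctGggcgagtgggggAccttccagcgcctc
Slc22a4: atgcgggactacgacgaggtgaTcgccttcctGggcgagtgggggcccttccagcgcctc
Slc22a21 differed from Slc22a5 at 4 of these bases and Slc22a4 at 2. Over the whole coding sequence Slc22a21 and Slc22a5 were 91.0% identical, with an unbroken identical run of 157 bases. Slc22a4 was 79.3% identical to Slc22a5 and 77.8% to Slc22a21. Of all 50-base words in their transcripts, 22.0% of those of Slc22a21 and 26.3% of those of Slc22a5 also occurred in another gene, against 2.64% for Slc22a4. Slc22a2 shared 4.44% of its words. The MATE pair, 74.9% identical, shared none. Values of Slc22a21 and Slc22a5 are therefore uncertain to the extent that the authors' counting divided or dropped such reads.

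Reads assigned to genes numbered 8342000 to 38101526 per library, and 18781 to 21719 genes were detected. The proximal tubule markers listed were abundant everywhere, their 12 genes summing to 12110 to 21010 CPM, read counts scaled to library size with TMM (trimmed mean of M-values) factors. WT vehicle library GC078604 and ARLmon vehicle library GC078618 lay farthest from the rest of their groups, at root mean square log2 distances of 0.559 and 0.543, against 0.28 to 0.493 for the other 18. ARLmon vehicle library GC078620 held adrenal gland markers at a summed 35.0 CPM, against at most 2.35 CPM elsewhere.

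Per kb of exon, MATE1 was the most abundant of the 7, with a median of 168 CPM per kb over the 20 libraries. OCT2 followed at 92.5 CPM per kb, OCTN2 at 68.5 and OCTN1 at 22.9. OCTN3 stood at 1.43, OCT3 at 0.276 and MATE2 at 0.146 CPM per kb. The libraries of MATE1 (126 to 315 CPM per kb) and of OCT2 (60.9 to 217) overlapped, as did those of OCT2 and OCTN2 (55.6 to 85.1). OCTN1 (9.59 to 29.5) lay under all libraries of these genes and over all those of OCTN3 (0.937 to 1.98). OCT3 (0.0602 to 0.517) and MATE2 (0.0278 to 0.441) overlapped each other and lay below OCTN3.

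**Figure D1:**
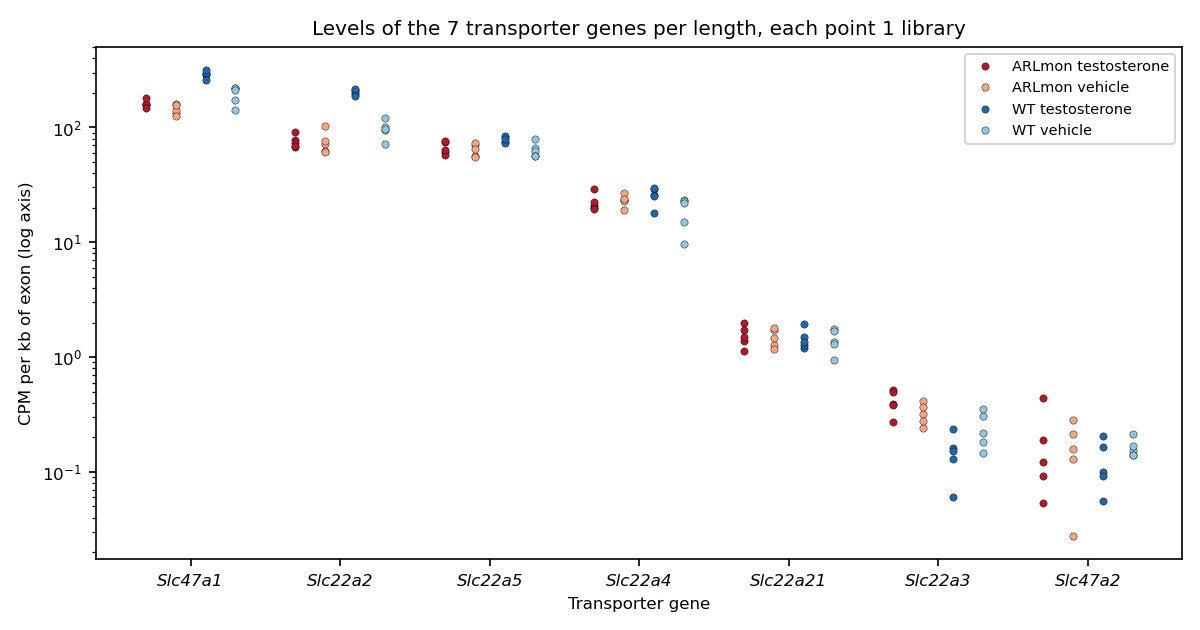
Level of each transporter gene in CPM per kb of exon on a log axis, each point 1 library, coloured by group with ARLmon to the left of WT and testosterone to the left of vehicle. MATE1 (Slc47a1) leads with a median of 168 CPM per kb, and OCT3 (Slc22a3) and MATE2 (Slc47a2) lie under 1 CPM per kb.

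In WT kidneys the basolateral carrier OCT2 and the luminal carrier MATE1 rose with testosterone, and no other member passed the test. A gene was counted as changed at a Benjamini-Hochberg adjusted p below 0.05 in edgeR's quasi-likelihood test over all 15549 genes tested. Of the 7 members 6 were tested, since Slc47a2 had too few reads. The 2 of 6 that passed stand beside 15.7% of all genes tested that did so in this contrast, and the median log2 difference was 0.38 over the members and -0.03 over all genes. In whole-kidney RNA, more cells of a type and more RNA per cell cannot be told apart.

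OCT2 (Slc22a2, chromosome 17, 12584132 to 12628488, plus strand, GRCm38) takes organic cations such as metformin and creatinine up from the blood side. WT testosterone libraries held 524, 483, 504, 538 and 470.5 CPM of Slc22a2. WT vehicle libraries held 235, 249, 302, 241 and 178 CPM. Every testosterone library, from 470.5 CPM up, was above every vehicle library, at most 302 CPM. The groups did not overlap, in either direction, for 12.6% of all genes tested. The log2 difference was 1.06 ± 0.14 (SE), with a 95% interval of 0.78 to 1.35, a 2.09-fold higher level (edgeR adjusted p = 9.12e-06). Without any one library it was 0.97 to 1.16 and always passed. Without GC078604 and GC078618 it was 1.16 (adjusted p = 2.25e-07).

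In ARLmon kidneys OCT2 had about the same mean with testosterone and with vehicle. Slc22a2 stood at 193, 167, 181, 224.5 and 172 CPM in ARLmon testosterone libraries. It stood at 177, 254.5, 189, 154 and 151 CPM in ARLmon vehicle libraries. The groups overlapped, and 1 vehicle library, GC078618, was the highest of the 10. The log2 difference was 0.02 ± 0.14 with an interval of -0.27 to 0.30 (adjusted p = 0.974). The interval does not reach the 0.78 that bounded the WT effect from below. The test of the difference between the genotypes' testosterone effects gave -1.05 ± 0.19 on the log2 scale, with an interval of -1.45 to -0.64 (adjusted p = 0.00174). OCT2 was the 1 of 6 members to pass this test, which 4.77% of all genes tested passed. It passed without any one library (-1.14 to -0.90) and without GC078604 and GC078618 (adjusted p = 0.000262).

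The window upstream of Slc22a2 is shown because this gene moved most in WT (RefSeq, GRCm38.p6, chr17:12583939-12584238, plus strand, 250 bases before to 50 after the RefSeq start). Capitals mark the CCAAT box, searched on both strands and found here as its reverse complement.
Slc22a2: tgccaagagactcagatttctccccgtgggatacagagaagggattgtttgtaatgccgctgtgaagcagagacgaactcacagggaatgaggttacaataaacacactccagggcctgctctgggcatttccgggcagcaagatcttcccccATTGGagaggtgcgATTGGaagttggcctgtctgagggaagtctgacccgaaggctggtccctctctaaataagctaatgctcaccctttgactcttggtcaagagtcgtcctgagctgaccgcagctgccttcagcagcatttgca
It held 2 matches to the CCAAT box, which 37.4% of 32817 promoter windows of the same length hold at least once. It held no GC box (GGGCGG, both strands), a motif found in 35.6% of windows. The window of Slc22a5, the OCTN gene with most reads, is set beside it, with GC boxes in capitals (chr11:53891654-53891953, minus strand).
Slc22a5: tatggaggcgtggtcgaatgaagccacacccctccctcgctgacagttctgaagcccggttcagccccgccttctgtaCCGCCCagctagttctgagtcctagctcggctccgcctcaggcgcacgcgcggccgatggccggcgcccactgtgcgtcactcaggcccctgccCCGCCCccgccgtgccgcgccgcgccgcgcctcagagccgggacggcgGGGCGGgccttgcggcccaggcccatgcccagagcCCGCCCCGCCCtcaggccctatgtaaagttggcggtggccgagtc
It held 5 GC boxes, the last pair sharing a base, and no CCAAT box. Its GC content was 72.7%, against 52.7% for Slc22a2. Windows were at hand for 5 of the 7 members (Slc22a2, Slc22a3, Slc22a4, Slc22a5 and Slc47a2). The steroid response half-site AGAACA, searched on both strands, had no match in any of them, and 19.0% of all windows hold it. The nuclear receptor half-site AGGTCA, in 16.3% of windows, had no match in them either. A window without these letters says nothing of sites elsewhere in the gene.

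**Figure D2:**
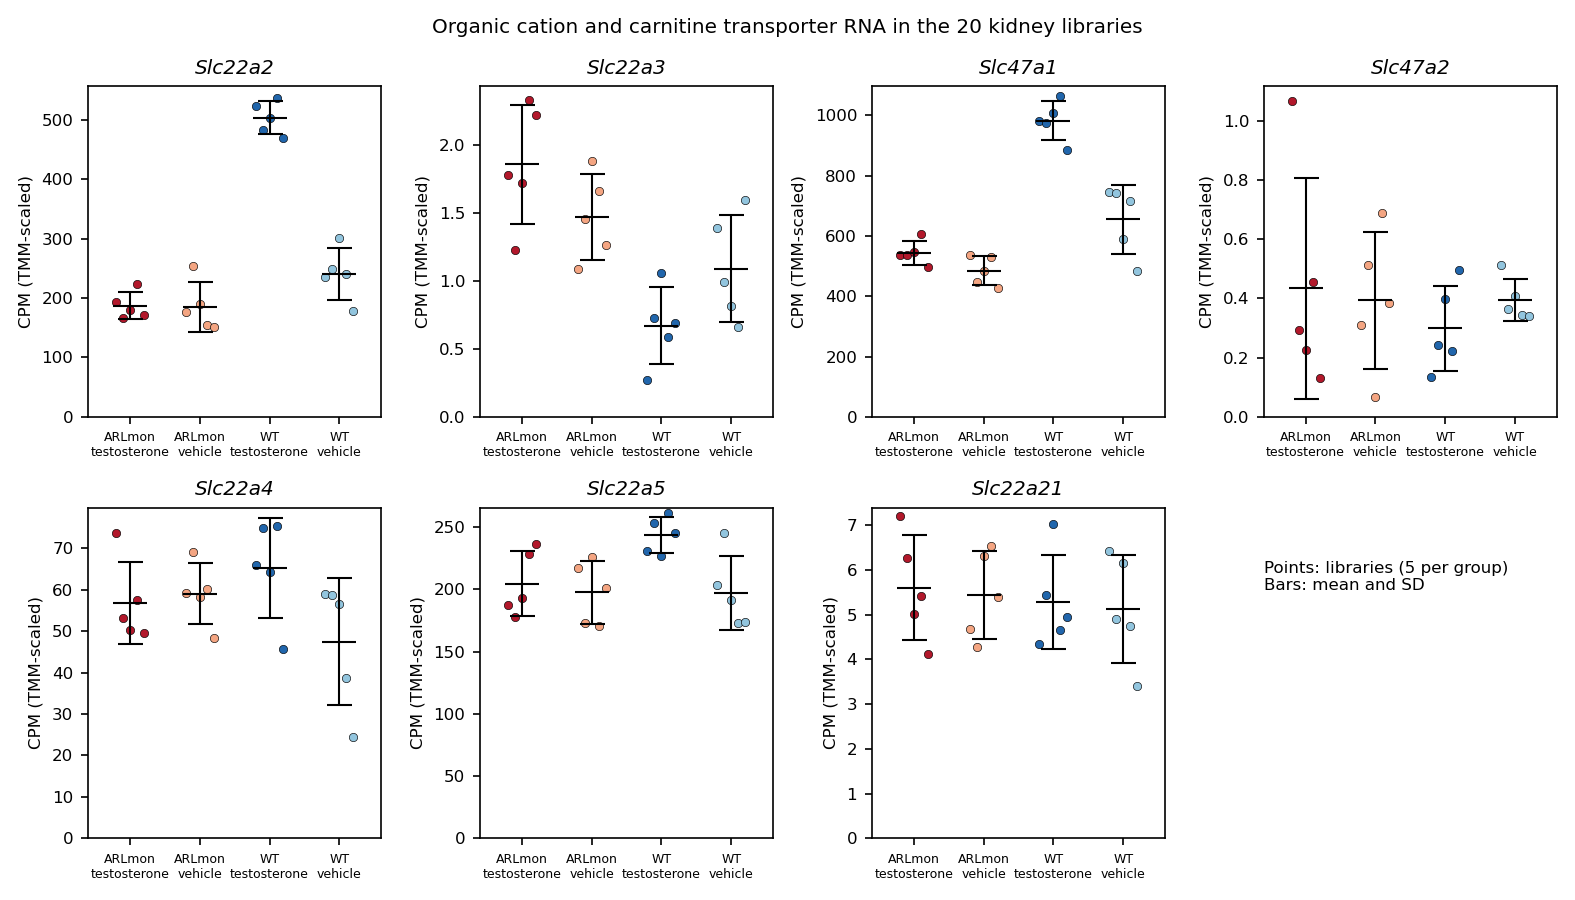
TMM-scaled CPM of the 7 transporter genes in 4 groups of 5 libraries; points are libraries and bars give mean and SD, on axes that start at 0. For Slc22a2 and Slc47a1 the 5 WT testosterone libraries lie above all 15 others, and for Slc22a3 they are the lowest group by mean.

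OCT3 (Slc22a3, chromosome 17, 12418960 to 12507704, minus strand) also takes up monoamines, and was nearly silent, with 391 reads over the 20 libraries. ARLmon testosterone libraries held 1.78, 1.23, 1.72, 2.33 and 2.22 CPM of Slc22a3, against 0.272, 0.725, 1.06, 0.591 and 0.693 CPM in WT testosterone libraries. The groups did not overlap, and OCT3 was higher in ARLmon by 1.47 ± 0.31 on the log2 scale, 2.78-fold (adjusted p = 0.00109). Its direction was opposite to that of OCT2 and MATE1 in the same contrast. The WT libraries behind this value held 2 to 8 reads each, and the ARLmon libraries 20 to 46. Under vehicle, Slc22a3 was at 1.09, 1.45, 1.88, 1.66 and 1.26 CPM in ARLmon, against 1.39, 0.992, 0.815, 0.659 and 1.59 CPM in WT. Those groups overlapped (log2 difference 0.51, interval -0.06 to 1.08, adjusted p = 0.347). Testosterone minus vehicle gave 0.34 in ARLmon (interval -0.21 to 0.88, adjusted p = 0.774) and -0.63 in WT (interval -1.30 to 0.04, adjusted p = 0.203), and the test of their difference gave 0.97 (adjusted p = 0.236). Exons of Slc22a3 and of Plg, the gene of plasminogen, share 420 bases on opposite strands, 9.31% of the Slc22a3 exon bases. Plg did not pass the filter on low counts. The unscaled Plg reads per library were 1 to 4 in ARLmon testosterone kidneys and 2 to 31 in WT testosterone kidneys, ranges that overlap. Summed over the libraries, Plg had 10 reads in ARLmon testosterone and 86 in WT testosterone. Slc22a3 went the other way, with 144 and 31 reads. The part of the shared bases in the Slc22a3 values was not tested. The strand setting of the counting is not given in the sources used here.

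MATE1 (Slc47a1, chromosome 11, 61343401 to 61378345, minus strand) exchanges cations in the cell for protons in the tubular fluid. WT testosterone libraries held 981.5, 974, 1008, 1065 and 884 CPM of Slc47a1. WT vehicle libraries held 744.5, 740.5, 589.6, 717 and 484 CPM. The groups did not overlap. MATE1 was higher with testosterone by 0.58 ± 0.11 on the log2 scale (interval 0.36 to 0.81, adjusted p = 0.000646). In ARLmon it stood at 536.5, 535, 545.5, 605.5 and 497 CPM with testosterone. ARLmon vehicle libraries held 538, 448, 483, 530.4 and 426 CPM. These groups overlapped, with a log2 difference of 0.17 and an interval of -0.06 to 0.39 (adjusted p = 0.774). The testosterone effects of the genotypes differed by -0.42 ± 0.15 with an interval of -0.74 to -0.10, which did not pass over all genes (adjusted p = 0.147). Scaled by library size alone, that difference was -0.24 (adjusted p = 0.371), and with limma on the deposited log2 values it was -0.27 (adjusted p = 0.39).

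MATE2 (Slc47a2, chromosome 11, 61301631 to 61342860, minus strand) lies next to MATE1 and was close to the limit of detection. Slc47a2 had 118 reads in all, 1 to 13 per library and none at 0. Its level was 0.434 ± 0.373 CPM in ARLmon testosterone and 0.393 ± 0.232 CPM in ARLmon vehicle kidneys. It was 0.298 ± 0.145 CPM in WT testosterone and 0.394 ± 0.0723 CPM in WT vehicle kidneys (SD, n = 5 each). All groups overlapped, and at this depth no difference was detectable. Slc47a2 did not pass the filter on low counts, and with no filter it passed 0 of the 6 contrasts (testosterone in WT -0.41, adjusted p = 0.719).

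Of the carnitine branch, 0 of 3 members passed any of the 6 contrasts in edgeR, which 0.0% to 31.1% of all genes tested passed. For testosterone in WT that share was 15.7%. Slc22a5 and Slc22a4 had an unadjusted edgeR p of 0.0116 and 0.0275 there, and 4480 of all 15549 genes had one below 0.05. OCTN2 (Slc22a5, chromosome 11, 53864542 to 53891660, minus strand), whose loss causes systemic carnitine deficiency in mice and humans, came nearest. Slc22a5 was at 231, 253, 227, 261 and 245 CPM in WT testosterone and at 203, 245, 191, 173 and 174 CPM in WT vehicle libraries. A single vehicle library, GC078603 at 245 CPM, lay within the testosterone range. The log2 difference was 0.30 ± 0.11 with an interval of 0.08 to 0.53 (edgeR adjusted p = 0.0656). It passed in DESeq2 (adjusted p = 0.0413) and in edgeR without GC078603 (adjusted p = 0.0156). It was smaller and did not pass with library size as the only scaling (0.15, adjusted p = 0.3) or with limma on the deposited log2 values (0.12, adjusted p = 0.423). In ARLmon, Slc22a5 had 187, 178, 193.5, 228 and 236 CPM with testosterone and 217, 173, 226, 171 and 201 CPM with vehicle. The log2 difference there was 0.05, with an interval of -0.18 to 0.28 (adjusted p = 0.893), and the difference between the genotypes' effects did not pass (-0.25, interval -0.58 to 0.07, adjusted p = 0.452).

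OCTN1 (Slc22a4, chromosome 11, 53983123 to 54028090, minus strand) varied most within the WT vehicle group. WT testosterone libraries held 65.9, 74.8, 64.3, 75.3 and 45.8 CPM of Slc22a4, against 59.1, 58.6, 56.7, 38.7 and 24.5 CPM in WT vehicle libraries. The lowest vehicle value was that of GC078606, and the groups overlapped (log2 difference 0.45, interval 0.06 to 0.85, adjusted p = 0.116). In ARLmon the mean was 56.9 ± 9.92 CPM with testosterone and 59.0 ± 7.36 CPM with vehicle (SD, n = 5 each; log2 difference -0.05, adjusted p = 0.937). OCTN3 (Slc22a21, chromosome 11, 53949965 to 53980332, minus strand) ran from 3.42 to 7.20 CPM in the 20 libraries. Its log2 difference with testosterone was 0.03 in ARLmon (interval -0.35 to 0.42) and 0.02 in WT (interval -0.38 to 0.42).

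Between the genotypes under testosterone, 3 of the 6 tested members differed, against 31.1% of all genes tested. OCT2 and MATE1 were lower in ARLmon and OCT3 was higher, and in all 3 the libraries did not overlap, as in 22.5% of all genes. Slc22a2 averaged 188 ± 22.9 CPM in ARLmon and 504 ± 27.9 CPM in WT (SD, n = 5 each), a log2 difference of -1.43 ± 0.14 (adjusted p = 8.65e-08). Slc47a1 averaged 544 ± 39.0 CPM in ARLmon and 982.5 ± 65.9 CPM in WT, a log2 difference of -0.85 ± 0.11 (adjusted p = 4.09e-06). Slc22a5, at 205 ± 25.9 CPM in ARLmon and 243.5 ± 14.5 CPM in WT, did not pass (-0.25, interval -0.48 to -0.02, adjusted p = 0.0884). It passed in edgeR without GC078603 (adjusted p = 0.0494), a library of neither group that enters the shared estimate of the spread and the scaling. Without that library the median of all genes in this contrast was 0.024, against 0.039 in the main test. The part of either in the call was not tested. Scaled by library size alone, the value of Slc22a5 was -0.009 (adjusted p = 0.95), and with limma on the deposited log2 values it was 0.03 (adjusted p = 0.848). Markers of several cell types also differed in this contrast. Of 10 markers of the late, straight proximal tubule segment 6 were lower and 2 higher in ARLmon, with sums of 4974 to 6737 CPM in ARLmon and 11700 to 14010 CPM in WT. All 8 podocyte markers were higher in ARLmon, with sums of 576.5 to 698 CPM in ARLmon and 331 to 421 CPM in WT. All 6 markers of smooth muscle and renin cells were higher, with sums of 321 to 453 CPM in ARLmon and 218 to 271 CPM in WT. All 4 distal convoluted tubule markers were higher (median log2 difference 0.74). Of 8 endothelial markers 5 were higher, as were 5 of 10 collecting duct and 4 of 6 macrophage and lymphocyte markers, with 0 lower. Thick ascending limb markers gave 1 higher and 1 lower of 5. General proximal tubule markers gave 2 higher and 2 lower of 12, and liver markers 1 higher and 3 lower of 5. The part of these markers in the differences of OCT2, MATE1 and OCT3 was not tested.

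Under vehicle, MATE1 was the 1 of 6 tested members that differed between the genotypes, against 4.37% of all genes tested. Slc47a1 averaged 485 ± 49.3 CPM in ARLmon and 655 ± 115 CPM in WT (SD, n = 5 each), a log2 difference of -0.43 ± 0.11 (adjusted p = 0.0231). The groups overlapped: WT vehicle library GC078606, at 484 CPM, lay among the ARLmon libraries. The call was lost with the 10 libraries of these groups alone (adjusted p = 0.144), with library size as the only scaling (0.0552), with limma on the deposited log2 values (0.0888) and without any one of GC078602, GC078603, GC078605, GC078618, GC078619 or GC078621 (up to 0.0777). Slc22a2 averaged 185 ± 41.9 CPM in ARLmon and 241 ± 44.2 CPM in WT and did not pass (-0.38, adjusted p = 0.13). It did pass without GC078618 (adjusted p = 0.0164), the highest ARLmon vehicle library, without GC078606 (0.0434), the lowest of WT vehicle, and without GC078604 and GC078618 (0.0304). Of the 10 straight segment markers 5 were lower and 1 higher in ARLmon under vehicle, with a median log2 difference of -0.42, against 0.005 for all genes. Of the 4 distal convoluted tubule markers 2 were higher in ARLmon. Higher too were 2 of 10 collecting duct and 1 of 8 podocyte markers, while 1 of 12 general proximal tubule and 3 of 5 liver markers were lower. The part of these markers was not tested.

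Between ARLmon kidneys with testosterone and WT kidneys with vehicle, 0 of the 6 tested members differed in edgeR, against 3.03% of all genes tested, and 3 of the 6 had an unadjusted p below 0.05, as did 2343 of all 15549 genes tested. Slc22a2 averaged 188 ± 22.9 CPM in ARLmon with testosterone and 241 ± 44.2 CPM in WT with vehicle (log2 difference -0.36, interval -0.65 to -0.08, adjusted p = 0.192). Slc22a3 was at 1.86 ± 0.44 CPM in ARLmon mice with testosterone and 1.09 ± 0.39 CPM in WT mice with vehicle (0.84, interval 0.29 to 1.40, adjusted p = 0.102), and passed with limma-voom (adjusted p = 0.0452). Slc47a1 was at 544 ± 39.0 CPM in ARLmon mice with testosterone and 655 ± 115 CPM in WT mice with vehicle (-0.27, adjusted p = 0.229) and passed without GC078606 (0.0447). DESeq2 passed 0 of the 6.

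For testosterone minus vehicle in ARLmon, edgeR passed 0.0% of all genes tested, with 813 genes at an unadjusted p below 0.05 and a smallest adjusted p of 0.774. DESeq2 and limma-voom also passed none, with 844 and 808 genes at an unadjusted p below 0.05. The groups did not overlap for 0.778% of all genes, and for none of the 6 tested members.

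**Figure D3:**
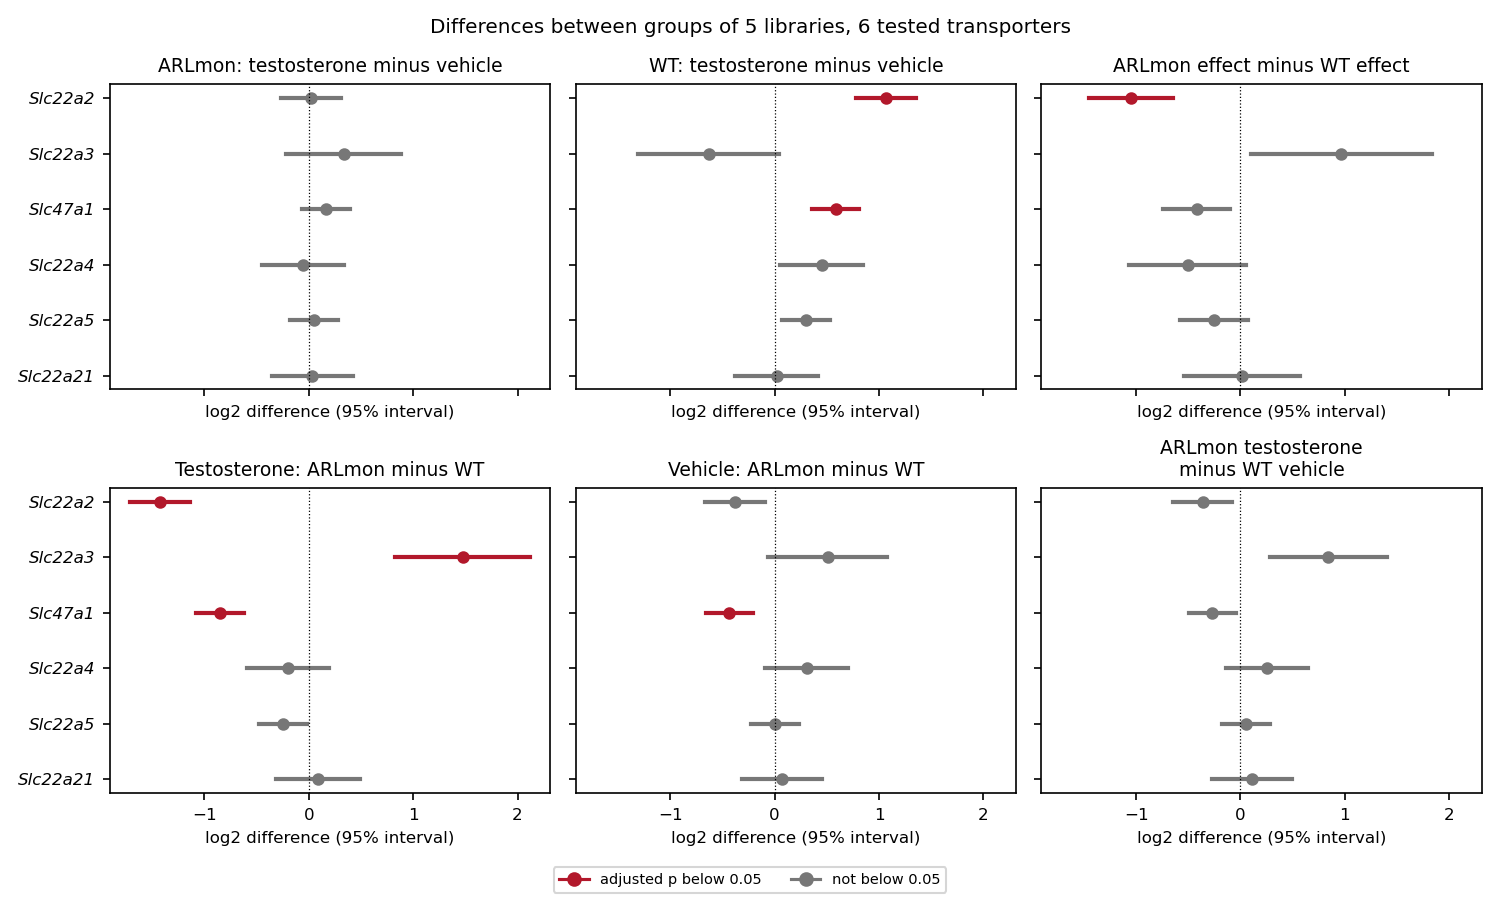
Log2 differences (points) with 95% intervals (lines) for the 6 tested members in the 6 contrasts, red where the edgeR adjusted p was below 0.05. Slc22a2 is the 1 gene marked for the difference between the genotypes' testosterone effects, and no gene is marked for testosterone in ARLmon or for ARLmon testosterone minus WT vehicle.

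The rise of OCT2 and MATE1 came with a rise of markers of the late, straight segment of the proximal tubule, where OCT2 is found, so the level of these markers is set beside it. Of 10 such markers 7 rose and 0 fell with testosterone in WT, where 15.7% of all genes tested changed. The median log2 difference of the 10 markers was 1.18, against -0.03 for all genes. Among the markers Slc7a13 and Cyp7b1 are known to respond to androgen in mouse kidney. The summed level of the 10 markers was 11700 to 14010 CPM in WT testosterone libraries and 4456 to 6807 CPM in WT vehicle libraries. In ARLmon the sums were 4974 to 6737 CPM with testosterone and 4962 to 7305 CPM with vehicle. In each ARLmon group, the library with the highest sum was also the highest for Slc22a2: GC078615 with testosterone (6737 and 224.5 CPM) and GC078618 with vehicle (7305 and 254.5 CPM). The same held in both WT groups, for GC078610 (14010 and 538 CPM) and GC078604 (6807 and 302 CPM). For Slc47a1 it held in the testosterone groups, with 605.5 CPM in GC078615 and 1065 CPM in GC078610, but not in the vehicle groups. There GC078618 had 448 CPM of Slc47a1, against 538 CPM in the highest ARLmon library. GC078604 had 589.6 CPM, against 744.5 CPM in the highest WT library. Below the highest library, the order of the sums and of Slc22a2 was the same in WT vehicle but not in the other groups. In WT testosterone, GC078611 had a sum of 12650 CPM and the lowest Slc22a2 (470.5 CPM), against 11840 and 524 CPM in GC078607. In ARLmon testosterone, GC078614 had the lowest sum (4974 CPM) and 181 CPM of Slc22a2, against 5126 and 167 CPM in GC078613. The part of these markers in the result was not tested. The 12 general proximal tubule markers, which were not sorted by segment, gave 2 higher and 1 lower in WT. Their sums were 16810 to 19580 CPM with testosterone and 12110 to 21010 CPM with vehicle. Of 8 podocyte markers 7 fell in WT and 0 rose, with sums of 331 to 421 CPM in WT testosterone libraries and 433 to 645 CPM in WT vehicle libraries. Of 6 markers of smooth muscle and renin cells 4 fell in WT and 0 rose, with a median log2 difference of -0.66, against -0.53 for the podocyte markers. Endothelial markers gave 1 fall and 0 rises of 8, and liver markers 1 rise and 2 falls of 5. The markers of thick ascending limb, distal convoluted tubule, collecting duct, and macrophages and lymphocytes gave 0 changes. The part of these markers was not tested either.

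Of the 10 tested genes listed as other organic cation and choline carriers, 1 rose and 3 fell with testosterone in WT, and 0 changed in ARLmon. Of all genes tested, 15.7% changed in WT and 0.0% in ARLmon. The median of the list in WT was -0.05, against -0.03 for all genes. Its falls were led by the multidrug efflux pumps Abcb1b, at 2.95 CPM with testosterone and 16.7 CPM with vehicle in WT (log2 difference -2.45 ± 0.28, adjusted p = 1.85e-06), and Abcb1a (-1.32, adjusted p = 0.000553). Both had a testosterone effect that differed between the genotypes, by 2.61 (adjusted p = 9.41e-05) for Abcb1b and 1.26 (0.0232) for Abcb1a. Slc44a2, a choline carrier, fell by 0.25 on the log2 scale (adjusted p = 0.0285), and Slc18b1, a vesicular polyamine carrier, rose by 0.41 (0.0127).

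The genes listed for carnitine synthesis and the carnitine shuttle, which include mitochondrial carriers and enzymes of fatty acid oxidation, moved both ways in WT. Of the 18 listed, 5 rose, 4 fell and the median was -0.04. Of all genes tested, 15.7% changed in WT and the median was -0.03. Crot, which attaches octanoyl groups to carnitine in peroxisomes, averaged 834 CPM with testosterone and 305 CPM with vehicle (1.45 ± 0.18, adjusted p = 3.3e-06). Its testosterone effect differed between the genotypes by -1.17 (adjusted p = 0.00516). Shmt1, listed for its aldolase step in carnitine synthesis and known best for folate metabolism, averaged 55.8 CPM with testosterone and 110.2 CPM with vehicle (-0.98 ± 0.07, adjusted p = 3.13e-09). Its effects differed by 0.88 between the genotypes (adjusted p = 7.26e-06). Acadm and Acadl, acyl-CoA dehydrogenases of fatty acid oxidation, rose by 0.76 (adjusted p = 0.00149) and 0.39 (0.00516). Of the 18, 0 changed with testosterone in ARLmon, as did 0.0% of all genes tested.

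Among 9 listed regulators of transporter genes, 1 rose and 1 fell with testosterone in WT and 0 changed in ARLmon. Of all genes tested, 15.7% changed in WT and 0.0% in ARLmon. The median of the regulators in WT was -0.001, against -0.03 for all genes. Hnf4a, a nuclear receptor of the proximal tubule, rose by 0.31 (adjusted p = 0.0185), and Cebpa, a leucine zipper factor, fell by 0.88 on the log2 scale (0.000603). Of 13 tested protein-coding genes that start within 200 kb of a member, 3 rose and 1 fell in WT, against 15.7% of all genes tested that changed. Their median was 0.003. Those that rose were Aldh3a2 (0.80), a fatty aldehyde dehydrogenase, Igf2r (0.52), the mannose 6-phosphate receptor, and Map3k4 (0.42), a MAP kinase kinase kinase. The predicted gene Gm12216 fell by 0.79.

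**Figure D4:**
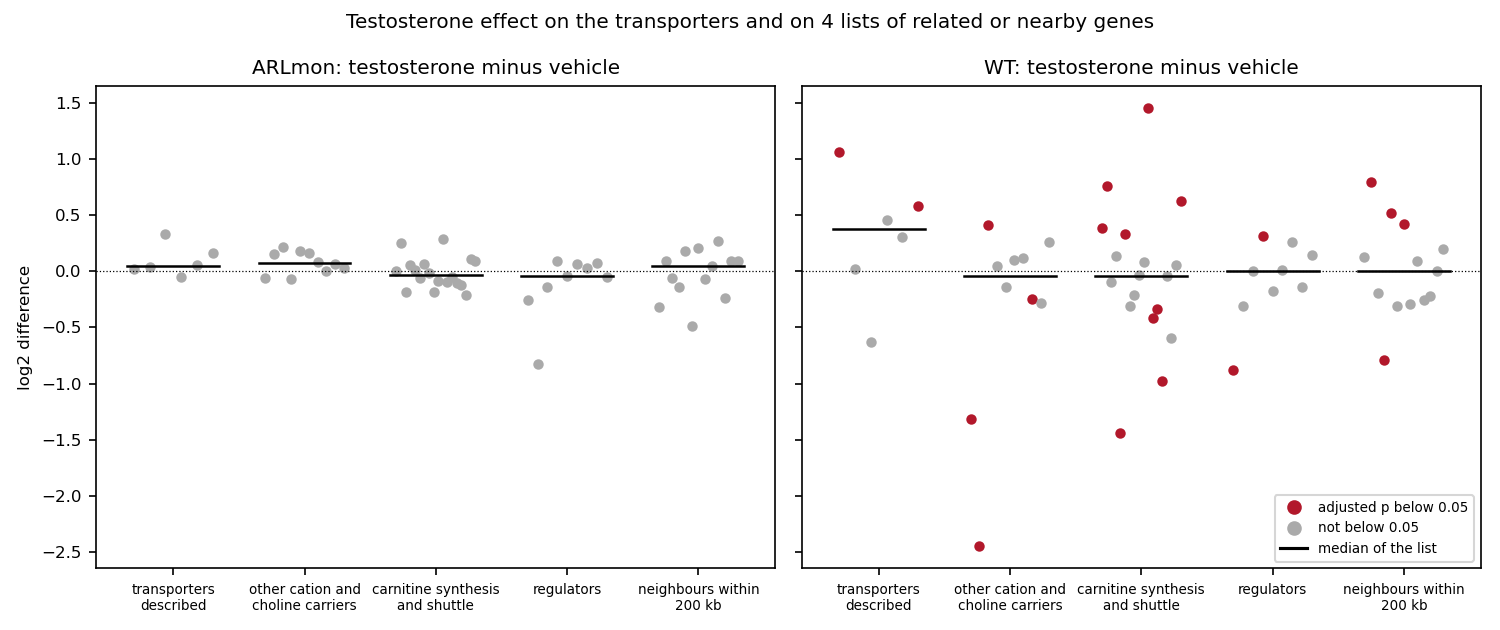
Log2 difference of testosterone minus vehicle for the 6 tested transporters and the tested genes of 4 lists, in ARLmon (left) and WT (right); points are genes, red where the edgeR adjusted p was below 0.05, and lines are list medians. Red points occur only in WT, in both directions for each list but for the transporters, where both are above 0.

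The genes whose pattern over the 20 libraries was most like that of the members that passed a test were found by the root mean square difference of centred log2 CPM, among 10817 genes averaging 5 CPM or more. For Slc22a2, which itself varied by 0.627 about its mean, these were Acat1 (0.154), the mitochondrial acetoacetyl-CoA thiolase, Coasy (0.157), which completes coenzyme A synthesis, and Vps8 (0.16), of endosomal tethering. For Slc47a1, which varied by 0.416, they were Gpr137b (0.105), Mtfr1 (0.109) and C1rl (0.12). For Slc22a3, which varied by 0.643, the nearest genes, Adcy3 (0.31), Igsf9 (0.365) and Il18bp (0.373), lay farther away. Slc22a3 had only 2 to 46 reads per library, and the part of count noise in these distances was not tested.

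The deposited log2 table, whose normalization is not stated, put OCTN3 at a level the counts do not show. In the log2 table Slc22a21 ran from 9.64 to 10.2 over the 20 libraries, close to Slc22a5 (9.26 to 9.75) and Slc22a4 (8.55 to 10.2). In log2 CPM from the counts Slc22a21 ran from 1.77 to 2.85, Slc22a5 from 7.42 to 8.03 and Slc22a4 from 4.61 to 6.23. The offset between the tables varied widely between genes, from -2.86 to 3.71 about the median for the middle 90% of 14434 genes. Slc22a21 stood at 7.79 log2 units above the median gene, with 13 genes farther out, and Slc22a4 at 4.15 and Slc22a5 at 2.08. The offset of Slc22a21 also varied more between libraries (SD 0.295) than the median gene's (0.103). The share of sequence common to these genes is given above, and its part in the offset was not tested. Slc22a2 (-0.24), Slc47a1 (-1.72) and Slc22a3 (-2.39) lay within the range of most genes. Limma on the deposited log2 values gave a rise of 0.92 for Slc22a2 (adjusted p = 1.72e-05) and of 0.46 for Slc47a1 (0.00774) with testosterone in WT.

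**Figure D5:**
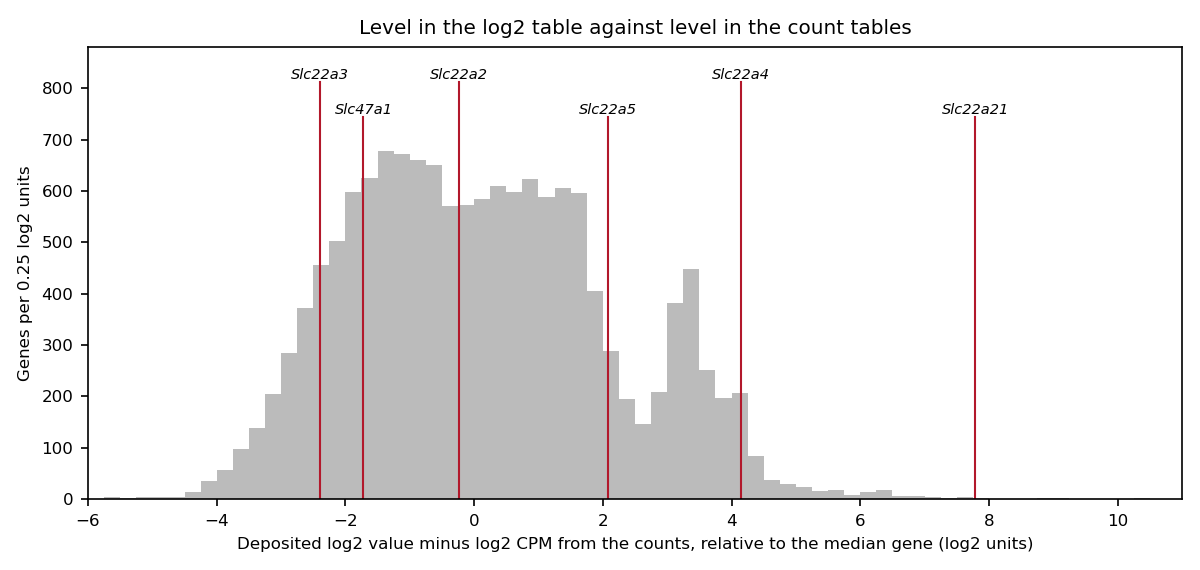
Histogram of the deposited log2 value minus log2 CPM from the counts for 14434 genes, relative to the median gene, with red lines at 6 transporters. Slc22a21 stands at 7.79 log2 units, with 13 genes beyond it, while Slc22a2, Slc22a3, Slc22a5 and Slc47a1 lie within the bulk.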

How the data were processed

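Per the submitters' processing notes, kidney RNA reads were handled with FastQC 0.11.7, HISAT2, SAMtools 1.5, HTSeq 2.7.14 and DESeq2 on mm10. The annotation and the strand setting of the counting are not given in the sources used here. The authors deposited 4 tables of raw counts, each with 10 libraries, which held the same values where they overlapped and were joined (24762 genes, 20 libraries). Values of genes absent from a table (12045 in 1713 genes, none of a member) were set to 0. The authors also deposited log2 values per library with no normalization stated. Columns carry library codes that give the group and not the replicate number.

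Counts were fitted by the quasi-likelihood test of edgeR 4.0.16 (R 4.3.3) after filterByExpr and TMM scaling, with 4 group means, 16 residual degrees of freedom and Benjamini-Hochberg adjustment over 15549 genes, on 8342000 to 38101526 reads per library. The test was checked on simulated data. Pairs of libraries within groups differed beyond sampling noise (chi-square over its degrees of freedom 5.23 to 139), so none were copies. Contrasts were testosterone against vehicle in each genotype, ARLmon against WT under each treatment, ARLmon testosterone against WT vehicle, and the effect of testosterone in ARLmon minus that in WT. Alternatives were RLE factors, library size alone, no filter and 1 CPM in 5 libraries, DESeq2 1.42.0, limma-voom and limma on the log2 values (3.58.1), the 10 most abundant genes left out, the compared groups alone, each library left out, and GC078604 and GC078618 left out together. The members and the lists of genes were chosen with earlier results of these data known; genes not reported here were left out of the lists. Named genes are the members and up to 4 genes of each list of related or nearby genes with the smallest p for testosterone in WT. The 3 genes most like each member that passed a test are also named, where predicted genes were left out. Slc7a13 and Cyp7b1 were named outside these rules, from the straight segment markers, as known to respond to androgen. Plg was added after its values were seen. Positions and lengths are those of GENCODE M21, matched by symbol, and promoters those of RefSeq. Figures were drawn with matplotlib 3.10.9.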

Additional observations from a re-analysis of the deposited data

Results flagged for a closer look

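For Slc22a2 (OCT2), the testosterone effect differed between the genotypes by -1.05 on the log2 scale (ARLmon minus WT, edgeR adjusted p = 0.00174), with effects of 0.02 in ARLmon and 1.06 in WT. It was listed because the difference itself passed its test. In all 5 WT testosterone libraries the level was above that of every other library, while the ARLmon testosterone libraries overlapped those of ARLmon vehicle. No single library stood apart from its group by Dixon's criterion for any of the 7 members in any of the 4 groups (28 tests).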

How the results depend on the processing

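No paired analysis was possible because the columns of the count tables carry library codes and not the replicate numbers of the labels. Of 1074 values of members under the alternatives, 1014 kept their direction and side of the threshold, 9 lost a call, 8 gained one and 43 changed sign, none of these called; the cause was not tested. Under vehicle, the number of members that differed between the genotypes was 1 in the main test, 0 with library size alone, with the compared groups alone and with the deposited log2 values, 2 without GC078604 and GC078618, and 0 to 2 with 1 library left out. For ARLmon testosterone against WT vehicle it was 1 with limma-voom and 0 to 1 with 1 library left out. It was 2 to 3 for testosterone in WT, 3 to 4 for the genotypes under testosterone, 0 for testosterone in ARLmon and 1 for the difference of the effects. The fit of compared groups alone gives no value for that difference.

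Library size as the only scaling moved the median of all genes from -0.03 to -0.18 for testosterone in WT, and the 3584 genes then called were 897 higher and 2687 lower, against 1455 and 989 of 2444 in the main test. For the genotypes under testosterone the median moved to 0.28 (6903 called, 5690 higher), and for the difference of the effects to 0.20 (1055 called, 715 higher, against 221 of 741). With it Slc22a2 stood at 0.92 and Slc47a1 at 0.43 for testosterone in WT, both called. Values near 0 that changed sign were Slc22a21 for testosterone in WT (-0.13 with library size alone, -0.004 with no filter, -0.009 with the deposited values) and, without GC078604 and GC078618, Slc22a21 and Slc22a4 for testosterone in ARLmon (-0.04 and 0.008) and Slc22a21 for the difference of the effects (-0.13). Others were Slc22a5 under vehicle (-0.008 with RLE, -0.015 with no filter, -0.008 with DESeq2). Larger values also changed sign for the genotypes under testosterone, those of Slc22a4 (-0.20 in the main test, 0.05 with library size alone, 0.036 with the deposited values) and Slc22a5 (-0.25 in the main test, 0.028 with the deposited values). With 1 library left out, ranges that crossed 0 were, for testosterone in ARLmon, -0.054 to 0.16 (Slc22a2), -0.163 to 0.009 (Slc22a4), -0.006 to 0.104 (Slc22a5) and -0.067 to 0.126 (Slc22a21). For Slc22a21 they were -0.096 to 0.11 for testosterone in WT, -0.022 to 0.163 for the genotypes under vehicle, -0.013 to 0.204 under testosterone and -0.087 to 0.13 for the difference of the effects. For Slc22a5 they were -0.051 to 0.08 for the genotypes under vehicle and -0.004 to 0.128 for ARLmon testosterone against WT vehicle.

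Depth limits the low genes: Slc47a2 was left out by the filter of the main test and passed no contrast with no filter, and Slc22a3 rested on 2 to 46 reads per library.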
